A study of Rattus norvegicus with 6 samples.

Results

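The genes described here are inhibitors that a cell transcribes when its mitogen-activated protein kinases (MAPK) are active and that then dampen those kinases: the MAPK feedback phosphatases and the Sprouty genes. They were chosen by name, as 10 genes, namely Dusp1, Dusp4, Dusp5, Dusp6, Dusp10, Spry1, Spry2, Spry4, Spred1 and Spred2. Of these, 9 were found among the 30560 genes of the deposited table, and Dusp1 was not analysed here. The antagomiR group held 3 libraries of cardiac fibroblasts from newborn Sprague-Dawley rats, 1 to 2 days old, transfected with 50 nM of an antisense oligonucleotide (antagomiR) against miR-142-3p. The NC group held 3 libraries of such cells given 50 nM of a negative control. In both groups the fibroblasts were obtained from digested ventricles by letting them attach first, were kept overnight without serum, and were transfected with Lipofectamine RNAiMAX. Attachment enriches fibroblasts but leaves other heart cells, and no label says that libraries of a group came from separate isolations, so the tests below measure the spread between libraries that may be technical repeats. Polyadenylated RNA was sequenced, and the values are FPKM, fragments scaled to gene length and library total. Levels of genes can thus be set side by side, although a value may not show a gene's true level, as for Mapk3 below.

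Dual-specificity phosphatases (Dusp) remove the activating phosphates from a MAPK. Some act in the nucleus and others in the cytoplasm, and some prefer ERK, the kinase downstream of Ras, while others prefer the stress kinases p38 and JNK. Sprouty (Spry) and Sprouty-related (Spred) proteins act higher up, between growth factor receptors and the Raf kinase, and in fibroblasts this route carries signals of FGF, PDGF and EGF.

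The mature microRNA that the antagomiR targets, best known from blood cells, is shown with its seed, bases 2 to 8, in capitals, because the antagomiR pairs with it. It is taken from RefSeq on GRCr8, chr10:73055155-73055177, plus strand.
rno-miR-142-3p: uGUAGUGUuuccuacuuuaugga
A transcript would pair with this seed through the letters ACACUAC, and transcript ends were not searched. Promoter windows are shown for the 4 members whose groups did not overlap, from 250 bases before to 50 bases after the start of the gene, on the gene's strand, from RefSeq on GRCr8. The Spry1 window is chr2:122485097-122485396, plus strand, with the GC box GGGCGG in capitals.
Spry1: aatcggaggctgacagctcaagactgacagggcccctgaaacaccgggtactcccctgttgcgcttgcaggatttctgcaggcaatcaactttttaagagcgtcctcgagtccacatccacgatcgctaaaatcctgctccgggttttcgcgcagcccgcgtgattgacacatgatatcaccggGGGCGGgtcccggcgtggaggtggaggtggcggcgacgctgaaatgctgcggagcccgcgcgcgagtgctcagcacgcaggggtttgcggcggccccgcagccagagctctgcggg
The Spry4 window is chr18:30702497-30702796, minus strand, with the repeated letters CATTCAT in capitals.
Spry4: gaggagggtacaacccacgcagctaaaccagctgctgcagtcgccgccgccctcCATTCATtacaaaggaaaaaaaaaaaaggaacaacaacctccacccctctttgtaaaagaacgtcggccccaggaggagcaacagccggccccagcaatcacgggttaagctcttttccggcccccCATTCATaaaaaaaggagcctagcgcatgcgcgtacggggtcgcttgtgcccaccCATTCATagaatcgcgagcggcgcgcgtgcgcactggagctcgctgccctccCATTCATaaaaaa
The Dusp5 window is chr1:262543524-262543823, plus strand. Its capitals mark a pair of adjoining CArG boxes, the element that serum response factor binds, and then TGACG, the core of the cyclic AMP response element, read on the other strand.
Dusp5: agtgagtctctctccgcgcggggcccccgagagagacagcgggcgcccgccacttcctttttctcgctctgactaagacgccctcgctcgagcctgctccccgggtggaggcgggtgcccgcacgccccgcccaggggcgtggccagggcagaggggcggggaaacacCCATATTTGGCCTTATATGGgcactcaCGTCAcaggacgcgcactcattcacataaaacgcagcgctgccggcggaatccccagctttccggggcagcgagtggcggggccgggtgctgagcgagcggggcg
The Dusp10 window is chr13:98145643-98145942, plus strand, with CCAAT boxes in capitals, which read ATTGG where they lie on the other strand.
Dusp10: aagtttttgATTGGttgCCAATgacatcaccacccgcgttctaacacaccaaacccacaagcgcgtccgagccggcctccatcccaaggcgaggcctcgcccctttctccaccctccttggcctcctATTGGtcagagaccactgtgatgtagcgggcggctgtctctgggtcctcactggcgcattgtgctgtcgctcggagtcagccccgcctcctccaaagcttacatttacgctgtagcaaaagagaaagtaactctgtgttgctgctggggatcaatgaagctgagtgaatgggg

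Windows were at hand for 8 of the 9 measured members, with 2 for Spry2, and the window of Dusp4 was not analysed here. In Dusp5 the CArG boxes CCATATTTGG and CCTTATATGG began 82 and 72 bases before the start. Of all 33469 windows, 1.64% held a CArG box and 0.0209% held 2 or more, while 21.2% held TGACG. Dusp10 had 3 CCAAT boxes, where 37.5% of windows held at least 1 and 3.02% held 3 or more. Members that were not called shared these motifs: Dusp6 and Spred2 had 1 CCAAT box each, and TGACG also stood in windows of Spred2 and Spry2. The letters CATTCAT, picked after the Spry4 window was seen, stood there 4 times. Of all windows, 3.70% held them at least once and 0.0687% held them 3 or more times. The GC box GGGCGG occurred in all 4 printed windows, and in 33.1% of all windows. It also stood in the windows of Spred1 and Spred2 and in 1 of the 2 for Spry2, but not in that of Dusp6. The members' windows were 56.00 to 76.3% GC, against a median of 51.7% over all windows. The AP-1 letters TGANTCA (7.33% of all windows), the ETS letters CCGGAAG (8.75%) and the TATA box TATAAA (14.2%) were in no window of a member. Both strands were searched, different motifs did not overlap in the members' windows, the motifs were chosen with the sequences in view, and binding was not measured.

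Totals were 22215475 to 24622667 fragments in antagomiR libraries and 19472409 to 24248843 in NC libraries, and 3 fragments on 1 kb of transcript, the limit that a count of 0 allows, equal 0.122 to 0.154 FPKM, counting error only. Fibroblast markers were abundant, summing to 10739.9 to 11028 FPKM in antagomiR and 11343 to 11447 FPKM in NC libraries, a sum carried by the collagen genes Col1a1, Col1a2 and Col3a1. By gene, 6 of the 10 were called higher with the antagomiR (Dcn, Lum, Pdgfra, Tcf21, Ddr2 and Postn) and 2 lower (Col1a2 and Thy1), and the median log2 fold change was 0.43. The 12 leukocyte markers summed to 728 to 820.1 FPKM in antagomiR libraries and to 108, 162 and 567 FPKM in NC replicates 1 to 3. All 11 of them that were tested were highest of NC in replicate 3, so that library stood apart, and the members' calls are also given without it. None of the 12 was at 0 throughout, and 4 were called higher with the antagomiR (Ptprc, Adgre1, Cd14 and Fcgr1a). Lyz2, which made up most of the leukocyte sum, was not called (limma adjusted p = 0.0511). The median log2 fold change of the tested leukocyte markers was 1.17, while C1qa, C1qb and Mrc1 were at 0.14, 0.15 and 0.10. Cardiomyocyte markers summed to 302 to 362 FPKM in antagomiR and 393 to 436 FPKM in NC libraries, most of it Tnnt2, which was called lower with the antagomiR, while 2 of 7 tested markers (Myh7 and Myl2) were called higher and the median was 0.16. Smooth muscle and pericyte markers summed to 32.6 to 33.6 FPKM in antagomiR and 50.04 to 55.5 FPKM in NC libraries, and all 3 tested were called lower. Epicardial markers summed to 9.76 to 12.4 FPKM in antagomiR and 14.6 to 16.3 FPKM in NC libraries. Of 3 tested, 2 were called lower (Upk3b and Msln) and Wt1 was not called. Endothelial markers summed to 3.54 to 3.79 and 2.40 to 2.72 FPKM in these groups, and the 1 tested, Tek, was called higher. In bulk RNA, fewer cells of a type and less RNA per cell cannot be told apart. The precursor transcript Mir142 had 5 to 8 fragments per antagomiR library and 3 to 6 per NC library (limma adjusted p = 0.25), which does not measure the mature microRNA and so did not check its silencing. Limma called 26.7% of 12024 tested genes at an adjusted p under 0.05, 2109 higher and 1107 lower with the antagomiR. That split was 1576 and 1484 with median-ratio scaling and 1413 and 1869 with quantile normalization.

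The tested feedback genes split in direction and moved little. Of 8 tested members, those with a mean of at least 1 FPKM, Spry1 rose, Spry4 and Dusp10 fell, and 5 were not called. Of all tested genes, 17.5% rose and 9.21% fell. Dusp5, whose mean of 0.853 FPKM lay below the filter, was higher with the antagomiR when all genes above 0 were tested. Its log2 fold change there was 0.39, at a ratio of mean FPKM of 1.84, and it is not among the values that follow. The median log2 fold change of the tested members was 0.02, against 0.06 over all tested genes, and the median absolute value was 0.12, against 0.16. The largest absolute value among them, 0.38, was exceeded by 19.3% of all tested genes.

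**Figure D1:**
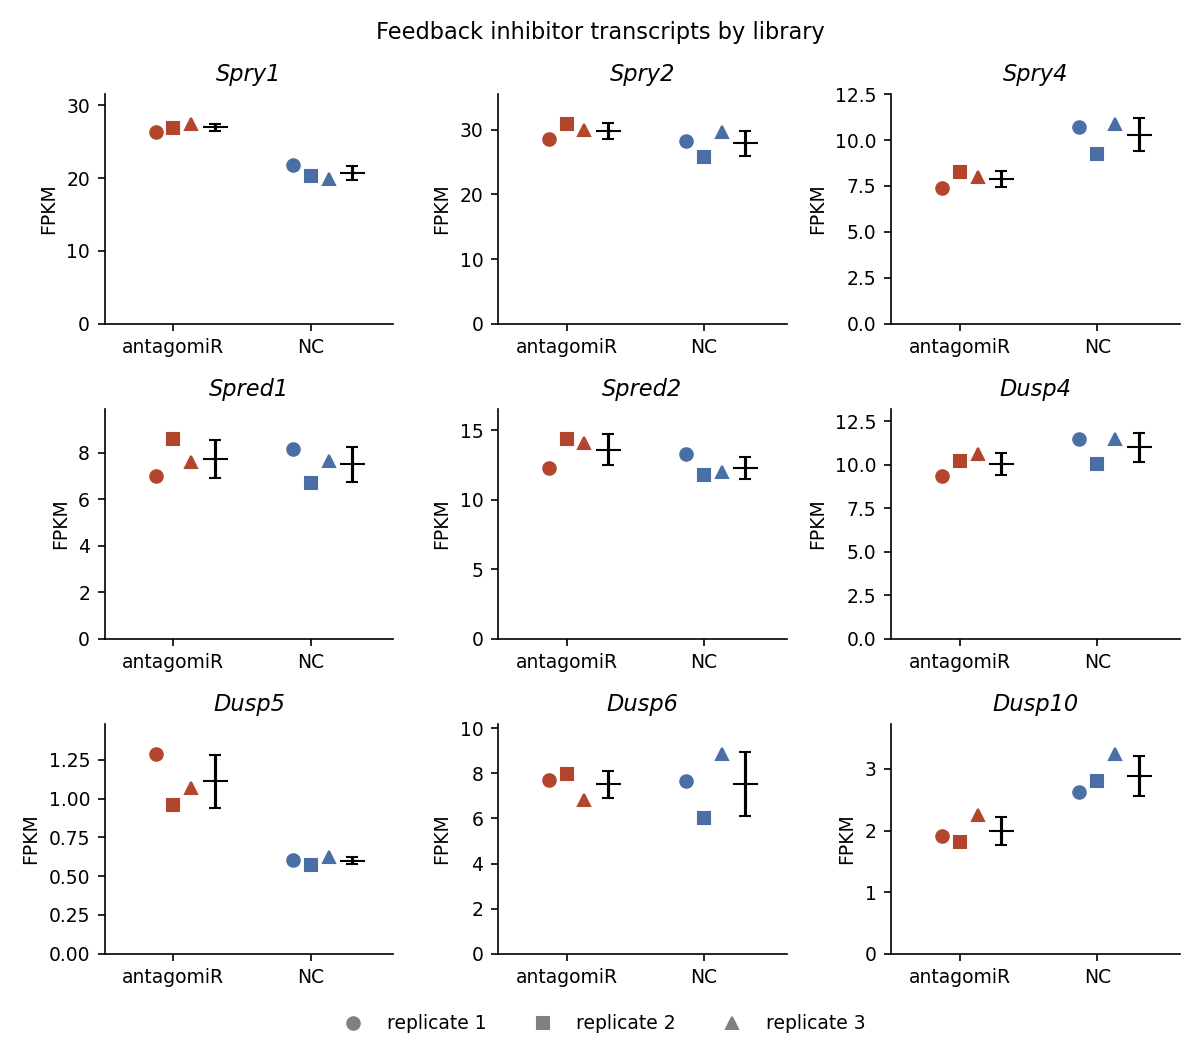
FPKM of the 9 measured feedback genes (y axes, from 0) in antagomiR and NC libraries (x axes). Symbols are replicates, and the bar beside them is the mean with its SD (n = 3). All antagomiR libraries lie above all NC libraries for Spry1 and Dusp5, and below them for Spry4 and Dusp10.

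Among the Sprouty genes, which restrain receptor signalling to Ras and Raf, Spry1 rose. Spry1 (ENSRNOG00000025371, chromosome 2, 120556706 to 120566189 in mRatBN7.2, the build of all positions from here on) was at 26.4, 26.9 and 27.5 FPKM in antagomiR replicates 1 to 3, against 21.8, 20.3 and 19.9 FPKM in NC replicates 1 to 3. All antagomiR libraries were above all NC libraries. The values rest on 3066, 3463 and 3282 fragments with the antagomiR and 2218, 2570 and 2048 in NC, and the antagomiR libraries differed by a coefficient of variation of 1.99%, the smallest of any member. Mean FPKM was 1.30 times that of NC, and the log2 fold change on FPKM + 1 was 0.37 (standard error 0.05, limma adjusted p = 0.00317). With NC replicate 3 left out this became 0.34 (limma adjusted p = 0.00178). Spry1 was called in each of the 15 alternative fits run, at 0.30 to 0.41.

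Spry4 fell. This Sprouty gene (ENSRNOG00000013851, chromosome 18, 30436443 to 30453004), whose protein inhibits growth factor signalling to Ras, had 7.41, 8.28 and 7.98 FPKM in antagomiR replicates 1 to 3, against 10.7, 9.26 and 10.9 FPKM in NC replicates 1 to 3. The groups did not overlap, and the highest antagomiR value and the lowest NC value were both those of replicate 2. Its log2 fold change was -0.34 (standard error 0.08, limma adjusted p = 0.0188), from 775 to 960 fragments per antagomiR library and 985 to 1058 per NC library. Leaving out NC replicate 3 gave -0.31 (limma adjusted p = 0.0205). The call was lost without antagomiR replicate 1 or 3 (limma adjusted p = 0.0766 and 0.0663) or NC replicate 1 (0.0523), at log2 fold changes of -0.35 to -0.30.

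Spry2 was the most abundant member in both groups. This Sprouty gene (chromosome 15, 82692143 to 82698009) was at 28.6, 30.96 and 29.9 FPKM in antagomiR libraries and at 28.3, 25.8 and 29.7 FPKM in NC libraries. The groups overlapped, and the log2 fold change of 0.09 had a 95% interval of -0.06 to 0.25 (limma adjusted p = 0.349).

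The make-up of the transcripts of Spry1, Spry2 and Spry4 differed between the groups. Spry3, which is not a member and lay below the filter, was left out of the sums. Summed over the 3 genes, FPKM was 62.4, 66.2 and 65.4 in antagomiR libraries and 60.9, 55.4 and 60.5 in NC libraries. Spry1 made up 41.7% ± 0.882 of that sum with the antagomiR and 35.1% ± 1.97 in NC (SD, n = 3 each). Spry4 made up 12.2% ± 0.319 with the antagomiR and 17.5% ± 0.661 in NC. Spry2 held 46.1% ± 0.596 and 47.4% ± 1.45 in these groups, so the shares of Spry1 and Spry4 were the ones whose groups did not overlap. The ratio of Spry1 to Spry4, which scaling of a library by one factor does not alter, was 3.57, 3.26 and 3.45 in antagomiR libraries, against 2.03, 2.19 and 1.83 in NC libraries. These shares and ratios were chosen after the values were seen and are given without a test.

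**Figure D2:**
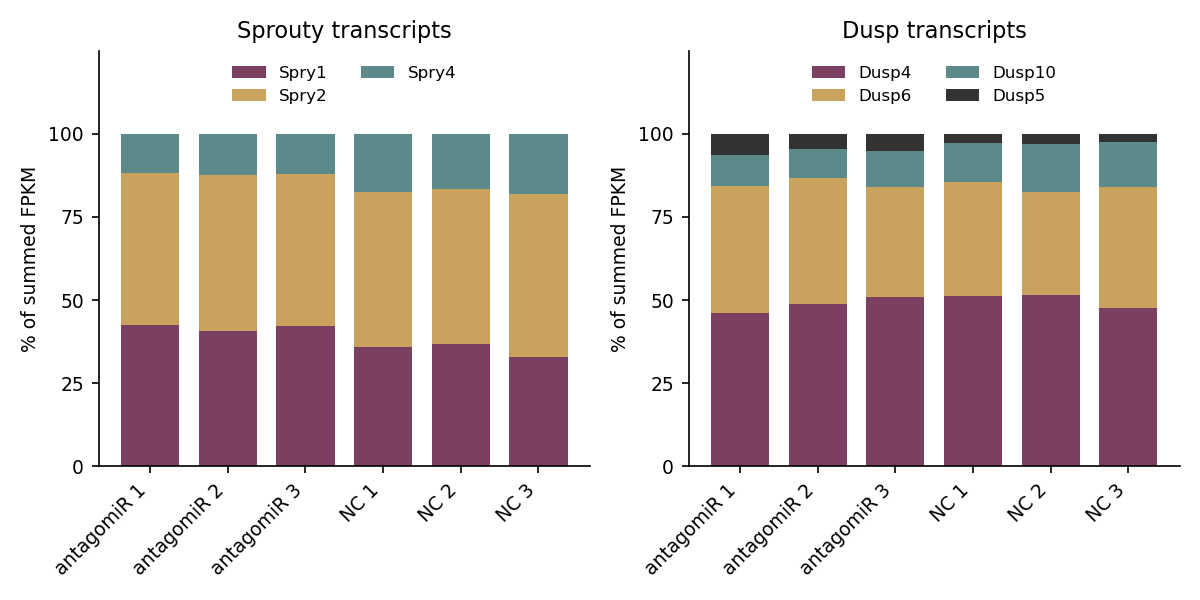
Share of summed FPKM (y axes, percent) held by each Sprouty member (left) and each measured Dusp member (right) in each library (x axes). Spry1 takes 40.7 to 42.4% of the Sprouty sum in antagomiR and 32.9 to 36.7% in NC libraries, and Dusp5 takes 4.56 to 6.37% and 2.55 to 2.94% of the Dusp sum.

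The Spred genes, whose proteins bring the Ras inhibitor neurofibromin to the membrane, were not called. Spred1 (chromosome 3, 103983072 to 104049718) had 6.99, 8.61 and 7.58 FPKM in antagomiR libraries and 8.17, 6.68 and 7.64 FPKM in NC libraries. The groups overlapped widely, with a log2 fold change of 0.04 and a 95% interval of -0.19 to 0.27 (limma adjusted p = 0.814). Spred2 (chromosome 14, 94148837 to 94249162) was at 12.3, 14.4 and 14.1 FPKM in antagomiR libraries and 13.3, 11.8 and 11.99 FPKM in NC libraries. Replicates 2 and 3 of the antagomiR were above all NC libraries and replicate 1 was not, and the log2 fold change of 0.13 had a 95% interval of -0.06 to 0.31 (limma adjusted p = 0.285).

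Neither Dusp6 nor Dusp4, phosphatases that act on ERK, was called. Dusp6, a cytoplasmic phosphatase that prefers ERK (chromosome 7, 34092943 to 34097185), was at 7.71, 7.99 and 6.82 FPKM in antagomiR replicates 1 to 3, against 7.65, 6.04 and 8.88 FPKM in NC replicates 1 to 3. NC libraries lay both above and below all antagomiR libraries, and their coefficient of variation, 18.9%, was the largest of any member in NC. Its log2 fold change of 0.0085 had a 95% interval of -0.30 to 0.31 (limma adjusted p = 0.971). Dusp4, a nuclear phosphatase of ERK and the stress kinases (chromosome 16, 57377229 to 57398138), had 9.32, 10.2 and 10.6 FPKM with the antagomiR and 11.5, 10.05 and 11.5 FPKM in NC. The groups overlapped through NC replicate 2, and the log2 fold change was -0.12 with a 95% interval of -0.30 to 0.06 (limma adjusted p = 0.291).

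Dusp5, a nuclear phosphatase specific for ERK, was the lowest member and had the largest ratio between groups. It (ENSRNOG00000014061, chromosome 1, 252538449 to 252551818) was at 1.29, 0.958 and 1.07 FPKM in antagomiR libraries, against 0.606, 0.573 and 0.620 FPKM in NC libraries. Every antagomiR library was above every NC library. The values come from 68, 56 and 58 fragments with the antagomiR and 28, 33 and 29 in NC, and the ratio of mean FPKM was 1.84. Tested among 20134 genes with no filter on low values, of which 15.7% were called, its log2 fold change was 0.39 (standard error 0.08, limma adjusted p = 0.0207). A pseudocount of 1 is as large as these values, and a pseudocount of 0.01 gave 0.86 (limma adjusted p = 0.0378). The call held without NC replicate 3, at 0.40 (limma adjusted p = 0.0289). It was lost without antagomiR replicate 1 or 3 (limma adjusted p = 0.055 and 0.0711) or NC replicate 1 or 2 (0.0579 and 0.0759), at 0.33 to 0.40.

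Dusp10, which prefers p38 and JNK over ERK, fell. It (ENSRNOG00000004003, chromosome 13, 95614292 to 95651716) had 1.91, 1.82 and 2.25 FPKM in antagomiR replicates 1 to 3, against 2.62, 2.81 and 3.25 FPKM in NC replicates 1 to 3. The groups did not overlap, and NC replicate 3 was the highest library. The values rest on 115 to 139 fragments per antagomiR library and 138 to 184 per NC library, and mean FPKM was 0.689 times that of NC. The log2 fold change was -0.38 (standard error 0.10, limma adjusted p = 0.0305), and -0.31 without NC replicate 3 (limma adjusted p = 0.0377). With a pseudocount of 0.01 it was -0.53 (limma adjusted p = 0.0328). The call was lost with no filter on low values (limma adjusted p = 0.0611), without antagomiR replicate 1, 2 or 3 (0.104, 0.11 and 0.0501) and without NC replicate 2 (0.08), at -0.44 to -0.34. Set against Dusp5 in the same libraries, Dusp10 was 1.48, 1.90 and 2.10 times as high with the antagomiR and 4.33, 4.89 and 5.24 times as high in NC, a ratio chosen after the values were seen.

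**Figure D3:**
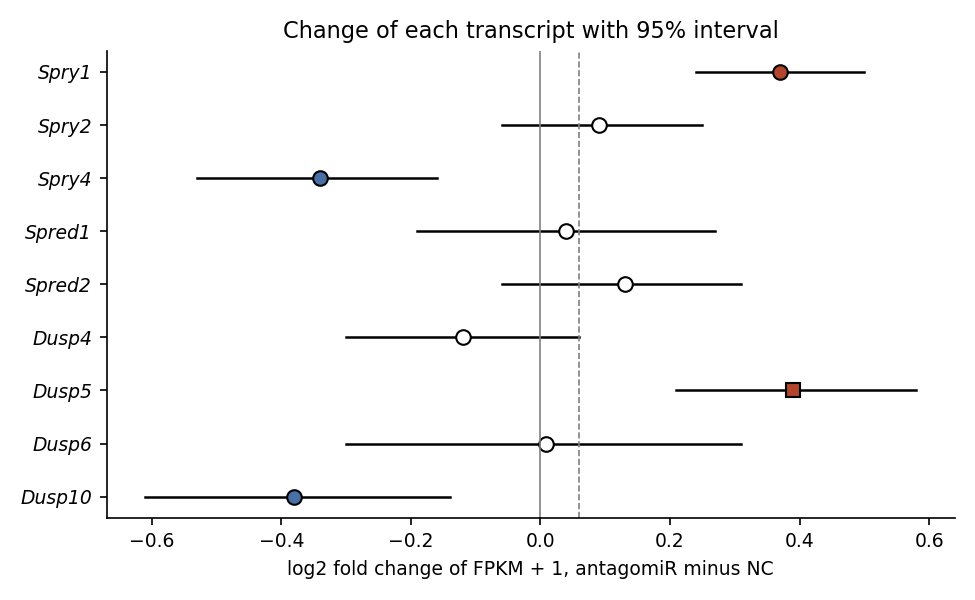
Log2 fold change of FPKM + 1, antagomiR minus NC (x axis), of each feedback gene with its 95% interval. Filled symbols passed an adjusted p under 0.05, Dusp5 is from the fit with no filter, and the dashed line is the median of all tested genes, 0.06. The intervals of Spry1 and Dusp5 lie above 0 and those of Spry4 and Dusp10 below 0.

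In all, 3 of the 8 tested members had groups that did not overlap, beside 44.6% of all tested genes. By level, Spry2, Spry1 and Spred2 came first and Dusp10 and Dusp5 last in both groups, each apart from the next without overlap. In the middle the groups differed. With the antagomiR, Spry4 at 7.89 ± 0.443 FPKM lay below Dusp4 at 10.04 ± 0.644 FPKM without overlap, and its range overlapped those of Spred1 at 7.72 ± 0.820 and Dusp6 at 7.51 ± 0.613 FPKM. In NC, Spry4 at 10.3 ± 0.901 FPKM overlapped Dusp4 at 11.01 ± 0.835 FPKM and lay above Dusp6 at 7.52 ± 1.42 and Spred1 at 7.50 ± 0.754 FPKM (SD, n = 3 each). Of the 9 measured members, 7 had their lowest NC value in replicate 2, as did 28.1% of tested genes, and 6 had their highest in replicate 3, as did 41.9%. The part of leukocyte, cardiomyocyte, smooth muscle, epicardial or endothelial RNA in the members' values was not tested.

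**Figure D4:**
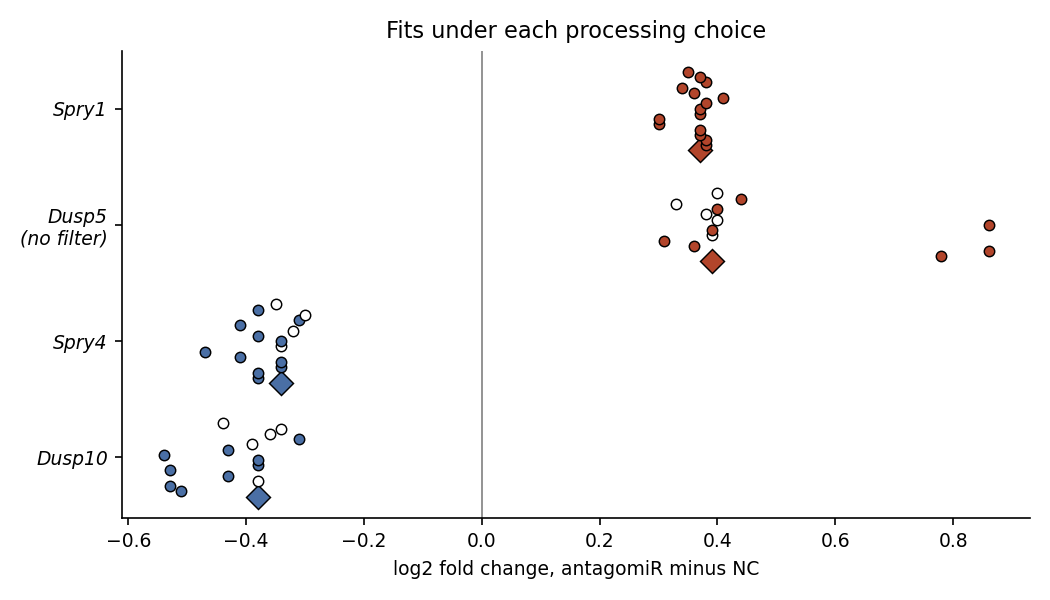
Log2 fold change, antagomiR minus NC (x axis), of Spry1, Dusp5, Spry4 and Dusp10 in the reported fit (diamonds) and in each alternative fit (circles), with Dusp5 from fits with no filter. Filled symbols passed an adjusted p under 0.05. Values run over 0.30 to 0.41 for Spry1, 0.31 to 0.86 for Dusp5, -0.47 to -0.30 for Spry4 and -0.54 to -0.31 for Dusp10, and none crosses 0.

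The profiles most like that of Spry1 over the 6 libraries, by the root mean square difference of centred log2(FPKM + 1), were those of RGD1310553 (0.0194), the protein kinase gene Prkd2 (0.0229) and Vmp1 (0.0244). Vmp1, which encodes a membrane protein needed for autophagy, averaged 54.2 ± 1.27 FPKM in antagomiR libraries and 40.9 ± 2.87 FPKM in NC libraries (SD, n = 3 each). Closest to Dusp10 were the adenylate cyclase gene Adcy3 (0.0238), Arl10 (0.0355) and Eif4ebp1 (0.0506), an inhibitor of translation initiation. Adcy3 was at 2.80, 2.60 and 3.04 FPKM with the antagomiR and 3.56, 3.92 and 4.35 FPKM in NC, and its groups did not overlap.

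The wider pathway was described with 6 gene lists. Of 99 tested genes, 19 rose and 11 fell, a share of 30.3% beside the 26.7% over all tested genes, and their median log2 fold change was 0.04, against 0.06 over all tested genes. Among the 4 other MAPK phosphatases tested with limma, 1 fell and 0 rose, with 0 higher at an unadjusted p under 0.05 and 0 by voom. The list's median was -0.06, but 0.11 by voom, -0.32 with a minimum of 5 FPKM, and -0.29 to 0.04 with 1 library left out, so its sign depended on the processing. The one that fell was Dusp8, a phosphatase of JNK and p38, with 5.52, 5.11 and 4.74 FPKM in antagomiR libraries and 8.65, 8.79 and 7.08 FPKM in NC libraries and a log2 fold change of -0.58 (limma adjusted p = 0.00507). Its groups did not overlap. Dusp2, a nuclear phosphatase of immune cells, was at 1.69, 1.35 and 1.32 FPKM with the antagomiR and at 0.285, 0.813 and 5.91 FPKM in NC replicates 1 to 3. Its value was highest in NC replicate 3, and its log2 fold change was -0.04 (limma adjusted p = 0.965). Leukocyte markers summed to 567 FPKM in that library and to 728 to 820.1 FPKM in antagomiR libraries, where Dusp2 was lower. By gene they differed. C1qa, C1qb, Mrc1 and Cd68 were, like Dusp2, highest of all libraries in NC replicate 3, at 10.99, 15.7, 7.96 and 53.3 FPKM. Ptprc, Adgre1, Lyz2, Cd14, Csf1r, Itgam and Fcgr1a were higher in every antagomiR library than in NC replicate 3. The part of leukocyte RNA in the Dusp2 values was not tested. Without NC replicate 3 Dusp2 was called higher with the antagomiR, at 0.68 (limma adjusted p = 0.015).

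Of 13 other inhibitors of receptor and Ras signalling tested with limma, 3 rose and 0 fell, with 1 lower at an unadjusted p under 0.05 and 1 by voom, and their median was 0.04. With median-ratio scaling 1 rose and 1 fell, and with quantile normalization 1 rose and 2 fell. Lrig1, which promotes the turnover of EGF receptors, was at 9.47, 8.87 and 8.64 FPKM with the antagomiR and 6.07, 5.56 and 5.22 FPKM in NC, a log2 fold change of 0.60 (limma adjusted p = 0.00144). Errfi1, an inhibitor of the EGF receptor kinase, had 9.77, 9.65 and 9.54 FPKM in antagomiR libraries and 8.50, 7.45 and 7.52 FPKM in NC libraries, at 0.27 (limma adjusted p = 0.0235). Spred3, the remaining Spred gene, was at 12.3, 13.2 and 13.7 FPKM with the antagomiR and 11.3, 10.3 and 10.2 FPKM in NC, at 0.28 (limma adjusted p = 0.0226). All 3 genes had groups that did not overlap. Errfi1 and Spred3 lost their calls with median-ratio scaling (limma adjusted p = 0.0536 and 0.0523) and with quantile normalization (0.136 and 0.112), and also when NC replicate 2 or antagomiR replicate 2 or 3 was left out (0.0807 to 0.0986). Errfi1 also lost it when antagomiR replicate 1 was left out (0.0871).

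The receptors that feed ERK changed in both directions, 3 up and 2 down of 14 tested, and their median was -0.02. The number lower was 4 with either other scaling, 5 without NC replicate 3 and 1 without NC replicate 2 or any 1 antagomiR library, while 3 were higher in each of these fits. Pdgfra, a PDGF receptor and fibroblast marker, was at 27.7, 27.5 and 27.4 FPKM in antagomiR libraries and 9.59, 8.79 and 7.22 FPKM in NC libraries, a log2 fold change of 1.59 (limma adjusted p = 8.28e-05). Egfr, the EGF receptor, changed by 0.57 and Ddr2, a collagen receptor, by 0.39 (limma adjusted p = 0.00553 and 0.0106). Fgfr3, an FGF receptor, changed by -0.48 (limma adjusted p = 0.00324).

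In the Ras-ERK cascade itself, 4 genes rose and 1 fell of 23 tested, and the median was 0.05. These counts were not stable: 3 rose and 3 fell with median-ratio scaling, 4 and 4 with quantile normalization, 2 and 1 with no filter, and 6 and 1 by voom. Without NC replicate 3, 6 rose and 1 fell, without NC replicate 1, 3 and 2, and without NC replicate 2 or any 1 antagomiR library, 2 and 0. Ksr1, a scaffold for Raf and MEK, had 8.42, 7.85 and 8.90 FPKM in antagomiR libraries and 4.84, 4.83 and 4.61 FPKM in NC libraries, at 0.70 (limma adjusted p = 0.000537). Rps6ka2 and Rps6ka1, kinases that ERK activates, changed by 0.59 and 1.02 and Araf, a Raf kinase, by -0.22 (limma adjusted p = 0.00555, 0.0234 and 0.0298). Rps6ka1 had 3.54, 3.87 and 3.49 FPKM with the antagomiR and 0.730, 0.936 and 2.52 FPKM in NC, where replicate 3 was again highest. Rps6ka1 lost its call with no filter on low values (limma adjusted p = 0.0527), and Rps6ka1 and Araf lost their calls when any library other than NC replicate 3 was left out (limma adjusted p = 0.0551 to 0.0839 and 0.0543 to 0.112). Mapk3, one of the genes for ERK, is listed at 0 in all 6 libraries although most cells use it, so that value may not show its level.

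Of 24 tested genes of the p38 and JNK cascades, 6 rose and 3 fell, and the median was 0.13. Without NC replicate 3, 9 rose and 5 fell, and with quantile normalization 4 rose and 4 fell. Map3k8, a kinase that activates the ERK pathway in inflammation, was at 6.35, 6.52 and 5.84 FPKM with the antagomiR and 2.05, 2.22 and 2.24 FPKM in NC, a log2 fold change of 1.19 (limma adjusted p = 0.000103). Mknk1, a kinase of the translation factor eIF4E, changed by 0.53 (limma adjusted p = 0.00073). Zfp36, an RNA-binding protein that destabilises cytokine transcripts, changed by -0.49 and the stress gene Gadd45b by -0.57 (limma adjusted p = 0.00079 and 0.00188).

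Genes reported as transcribed under ERK activity did not move one way, with 3 up and 4 down of 21 tested and a median of 0.02. By voom or without NC replicate 3, 5 were higher and 4 lower, and without antagomiR replicate 2 or 3, 3 were higher and 1 lower. Over the alternatives that left out no library, 2 to 5 were higher and 2 to 5 lower. The median ran over -0.09 to 0.05 in these fits, so its sign depended on the processing. The ETS factor genes Elk3 and Etv1 changed by 0.59 and 0.82 and the early response gene Ier3 by 0.38 (limma adjusted p = 0.00244, 0.00348 and 0.00834). Hbegf, an EGF receptor ligand, changed by -0.49 (limma adjusted p = 0.0077). Etv5, an ETS factor often read beside Dusp6 and Spry4, had 10.2, 10.8 and 11.03 FPKM in antagomiR libraries and 9.72, 9.98 and 11.01 FPKM in NC libraries. NC replicate 3 reached the antagomiR range, and the log2 fold change of Etv5 was 0.06 (limma adjusted p = 0.565). Its relative Etv4 was at 6.68, 7.61 and 6.71 FPKM with the antagomiR and 4.37, 4.20 and 6.64 FPKM in NC, at 0.42 (limma adjusted p = 0.0835).

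**Figure D5:**
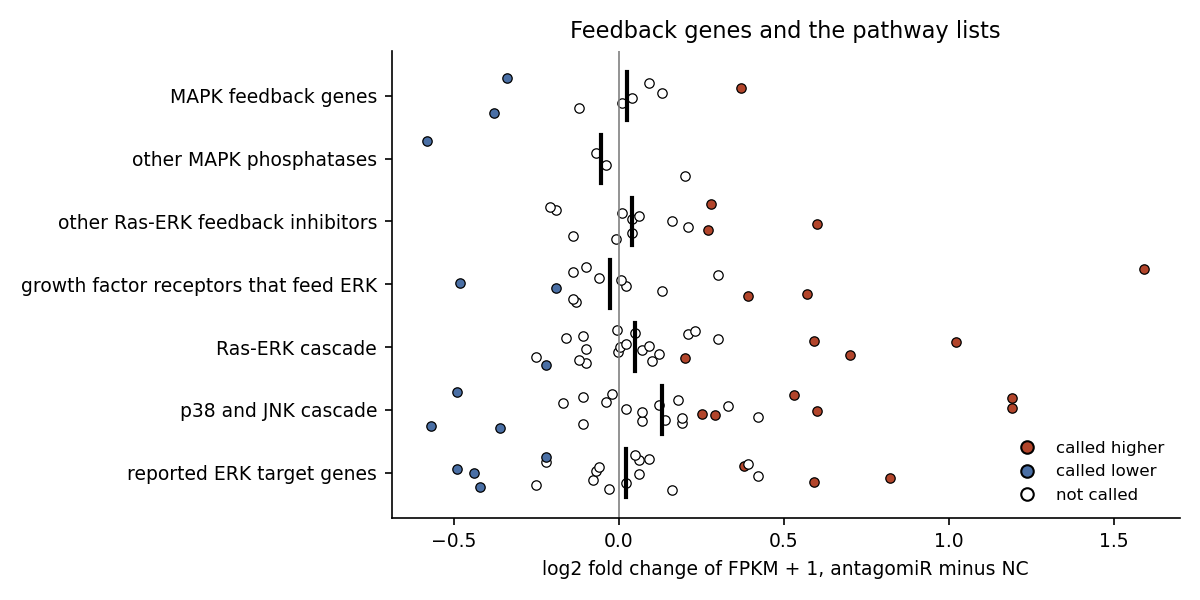
Log2 fold change of FPKM + 1, antagomiR minus NC (x axis), of each tested gene in the feedback set and in 6 pathway lists, with bars at the medians. Filled symbols passed an adjusted p under 0.05. Called genes lie on both sides of 0 in the feedback set and in the cascade, receptor and ERK target lists, and the farthest point is Pdgfra at 1.59.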

How the data were processed

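Per the submitters' processing notes, FastQC, cutadapt, HISAT2, HTSeq and edgeR were used with mRatBN7.2. Their order and versions, the annotation release and the strand setting are not given in the sources used here, so overlapping and antisense genes cannot be told apart. The authors deposited FPKM. Library totals and whole fragments were recovered from them (100% of 20134 genes above 0, tolerance 0.01). Columns were assigned by name.

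Limma 3.58.1 in R 4.3.3 (lmFit, eBayes with a trend) was run two-sided on log2(FPKM + 1), which understates changes of low genes, where FPKM averaged at least 1. P-values were adjusted by Benjamini-Hochberg over 12024 genes, with a threshold of 0.05, and changes are antagomiR minus NC. Both steps were tested on simulated data. Those data held no outlying library and, for limma, few changed genes, so they do not check the calls made here. The members and lists were chosen with earlier results of these data known. Named genes were the members, Mir142, up to 4 called genes with the smallest p per pathway list, and the 3 profiles nearest to the called members with the largest rise and fall. Dusp2, Etv4, Etv5, Mapk3 and the genes of the closing section were chosen after seeing values. Alternatives were other pseudocounts, filters and scalings, a replicate block, no trend, voom on recovered fragments, and leaving out each library. The combined settings for Dusp5 were chosen after seeing the data.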

Additional observations from a re-analysis of the deposited data

How the results depend on the processing

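Among the members, depth limits Dusp5 and Dusp10 most, at 28 to 184 fragments per library. Without 1 library, 1866 to 4877 genes of the whole table were called (2016, 1986 and 1866 with antagomiR replicate 1, 2 or 3 left out, and 4877 with NC replicate 3 left out), 1198 to 3200 higher and 668 to 1677 lower, with 19 to 45 in the pathway lists. That left 1 to 3 called members, 1 higher and 0 to 2 lower. With no filter 2 members were higher and 1 lower, and with a minimum of 5 FPKM, where Dusp10 was not tested, 1 was lower. Quantile normalization moved the median of all genes by -0.11, gave 1869 lower genes and called Dusp4 at -0.24 (limma adjusted p = 0.0453). Signs turned for genes not called: with median-ratio scaling and quantile normalization Dusp6 was at -0.05 and -0.12, and Spred1 at -0.02 and -0.09. Without 1 library Dusp6 ran over -0.12 to 0.12 and Spred1 over -0.03 to 0.10. Dusp2 was at 0.27 and 0.37 with pseudocounts of 0.1 and 0.01, at 0.38 by voom, and at -0.53 to 0.68 without 1 library. The cause was not tested. Deviations of libraries with equal replicate numbers correlated at -0.16, -0.06 and -0.04, and none correlated best with its own number. With the replicate block 2380 genes were called and 1 member was lower, since Spry4 lost its call (limma adjusted p = 0.0558), as did Dusp5 (limma adjusted p = 0.0691). The block also ended the calls of Errfi1, Spred3, Araf, Grb2, Phlda1, Gadd45a, Fgfr1 and Egr2 (limma adjusted p = 0.0518 to 0.0932). Of 132 pairs of a member and an alternative, 108 kept both sign and call status, as did 489 of 560 for the other named genes, of which 66 lost the call.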

Other observations

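The remaining called genes of the pathway lists had these values. Mapkapk3, a kinase activated by p38, was at 15.3, 13.7 and 15.5 FPKM in antagomiR libraries and 4.70, 5.21 and 8.34 FPKM in NC replicates 1 to 3, with NC replicate 3 the highest of NC. Map3k5, a kinase that responds to oxidative stress, had 4.02, 3.79 and 3.96 FPKM with the antagomiR and 2.58, 2.11 and 2.07 FPKM in NC. Map3k3, Map3k20 and the adaptor gene Grb2 were also higher with the antagomiR, at log2 fold changes of 0.25, 0.29 and 0.20. The early response gene Fos was at 16.01, 11.4 and 13.5 FPKM in antagomiR libraries and 17.9, 18.6 and 19.6 FPKM in NC libraries, and all 3 antagomiR libraries were lower. Egr2, another early response gene, had 4.52, 3.59 and 4.12 FPKM with the antagomiR and 5.40, 6.39 and 5.58 FPKM in NC. Phlda1, Gadd45a and the FGF receptor gene Fgfr1 were lower with the antagomiR as well, at log2 fold changes of -0.22, -0.36 and -0.19. Limma adjusted p ran from 0.00296 for Map3k5 to 0.0424 for Grb2. Mapkapk3 and Map3k5 kept their calls in every alternative fit that tested them, and the others did not. Grb2 lost its call with median-ratio scaling (limma adjusted p = 0.141), no filter (0.0524), no trend (0.0675) and the loss of any library but NC replicate 3 (0.0855 to 0.148). Map3k3 and Map3k20 lost theirs with quantile normalization (limma adjusted p = 0.053 and 0.0551), and Map3k20 also without antagomiR replicate 2 or 3 (0.0641 and 0.0681). Fos and Egr2 lost theirs without NC replicate 2 or antagomiR replicate 2 or 3 (limma adjusted p = 0.0629 to 0.0885 and 0.0635 to 0.0667), and Fos also with no filter (0.053). Without any 1 antagomiR library Phlda1, Gadd45a and Fgfr1 lost theirs, as did Phlda1 without NC replicate 1 and Fgfr1 without NC replicate 2 (limma adjusted p = 0.0602 to 0.0971, 0.0584 to 0.0779 and 0.0643 to 0.0949).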
